A study of Mus musculus with 12 samples.

Results

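The nuclear-encoded subunits of the respiratory chain were examined in total RNA of mouse iBAT, the interscapular brown fat depot. The genes were taken by name from the authors' gene table, as protein-coding rows whose symbols belong to the subunits of complex I (Nduf a, b, c, s and v), complex II (Sdha to Sdhd), complex III (Uqcr and Cyc1), complex IV (Cox4 to Cox8) and the ATP synthase, called complex V (Atp5). This gave 86 of the 61210 rows of the table, with 85 different symbols: 37 rows for complex I, 4 for complex II, 9 for complex III, 18 for complex IV and 18 for complex V. The complex was assigned by the letters of the symbol alone, so that Ndufa4 and Ndufa4l2 count under complex I here, whichever complex holds their proteins. The libraries came from wild type C57BL/6N mice that were 20 weeks old. The 4 groups of 3 libraries each were a control diet (NCD) at room temperature, NCD with 24 h at 4 °C, a high-fat diet (HFD) at room temperature, and HFD with 24 h at 4 °C. HFD began at 8 weeks of age and lasted 12 weeks, and the mice of all groups were reared on chow until then. The depositors' design text expands iBAT as inguinal, whereas the study's methods call it interscapular.

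Complexes I to IV pass electrons from NADH and succinate to oxygen. Complexes I, III and IV pump protons out of the mitochondrial matrix as they do so, and complex V lets protons back in to make ATP. Brown fat is rich in mitochondria and holds UCP1, which lets protons re-enter without making ATP, so that respiration gives heat, and its content of ATP synthase is known to be low for its content of respiratory chain. Several subunits exist as a pair of isoforms from separate genes, of which one is found in most tissues and the other in heart and skeletal muscle, and brown fat is known to use some of the muscle-type forms.

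Total counts ran from 15136861 to 46740702 per library. The labels put replicates 1 and 2 in a first batch and replicate 3 in another, in all groups. Brown adipocyte markers were high in all 12 libraries, with Ucp1 at 3789 CPM or more, CPM being a gene's count scaled to the TMM-adjusted library size. Skeletal muscle RNA was present in every library and varied within each group: the summed level of 19 muscle markers, all of which were detected and tested, was 7470 to 24561 CPM in the library with the most in each group (replicate 2 on NCD, replicate 3 on HFD, at both temperatures) and 882 to 4646 CPM in the other 8. In tissue RNA fewer cells of a type and less RNA per cell cannot be told apart. Genes encoded by mitochondrial DNA were not analysed here.

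Of the 86 rows, 83 passed the filter on low counts. Cox7b2 and Cox8c, complex IV isoforms known from testis, had 0 counts in all 12 libraries, which allows up to 3 counts in each. A second row with the symbol Atp5o held at most 16 counts per library and was also left out. Per kilobase of exon (union of exons in GENCODE M21), the mean level over the 4 groups was highest for Atp5b, the catalytic beta subunit of the ATP synthase, at 3197 CPM per kb. It was followed by the complex IV subunits Cox8b at 1941, Cox6a1 at 1450 and Cox4i1 at 1419 CPM per kb. The median level per kb was 244 CPM for complex I, 591 for complex II, 825 for complex III, 662 for complex IV and 419 for complex V. The lowest were isoform genes: Cox6b2 at 1.53, Cox4i2 at 3.80, Atp5g1 at 5.72 and Ndufa4l2 at 6.12 CPM per kb, the value of Atp5g1 being divided by an exon union of 4912 bases. In 31 of the 83 genes more than 10% of the 31-base words of the transcripts also occur in transcripts of another gene, so that their reads can be split between copies, and Atp5o, with 49.6%, had the highest share among the genes tested.

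On the TMM scale the subunit genes of all 5 complexes were lower in HFD in the cold than in NCD in the cold, with a median log2 fold change of -0.36, beside 0.04 for 24 h of cold on NCD. Single genes seldom passed the test: 2 fell in cold on HFD and 3 fell for HFD in the cold. Fold changes are edgeR log2 fold changes, and a call is a Benjamini-Hochberg adjusted p under 0.05 over all 16737 genes tested. Each group takes part in 2 of the comparisons, so that these are not independent of each other. P-values rest on the spread between the 3 libraries of a group, which the labels number as replicates without saying whether each is 1 mouse.

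In cold on NCD, 0 of 83 subunit genes were called by edgeR, against 7.42% of all genes. DESeq2 also called 0 of them, and its share of all genes is not given here. With edgeR 2 (Ndufa4l2 and Ndufb2, both higher) had an unadjusted p under 0.05, against 21.9% of all genes. The median log2 fold change of the 83 genes was 0.04, beside -0.01 for all genes tested, with 55 above 0 and 28 below. This median was -0.02 with upper-quartile scaling or with muscle content as a covariate, and -0.04 in the batch of replicates 1 and 2 alone, so that its sign was not stable. Without replicate 1 of NCD at room temperature it was 0.14, with 76 genes above 0 and 7 below. The middle 50% of the genes lay between -0.03 and 0.13. The groups did not overlap in 4 genes, all higher in the cold, against 15.2% of all genes.

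In cold on HFD, edgeR called 2 of 83 genes, or 2.41%, both lower, against 4.57% of all genes called lower and 11.5% called in either direction. The median log2 fold change was -0.21, beside -0.04 for all genes, with 7 genes above 0 and 76 below. It was -0.12 without replicate 1 of HFD in the cold and -0.34 without replicate 2 of that group. Groups did not overlap in 17 genes, or 20.5%, all lower, against 14.4% of all genes. At an unadjusted p under 0.05 there were 21, all lower, against 27.5% of all genes in either direction. The number called depended on the test: DESeq2 called 8, against 15.7% of all genes in either direction, and a fit blocked on replicate number, separately for each diet, called 11, against 15% of all genes. All of these were lower.

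For HFD at room temperature, 0 of 83 genes were called by edgeR, against 2.16% of all genes. DESeq2 also called 0 of them, and its share of all genes is not given here. With edgeR 3 (Ndufb3, Uqcr10 and Cox6a1, all lower) had an unadjusted p under 0.05, against 18.1% of all genes. The median log2 fold change was -0.07, beside 0.03 for all genes, with 22 above 0 and 61 below. It was 0.00 without replicate 3 of HFD at room temperature, with 41 above 0 and 42 below, and -0.17 without replicate 3 of NCD at room temperature. Groups did not overlap in 8 genes, all lower, or 9.64%, against 12.9% of all genes. With library totals alone as scaling, the same median was 0.12 and that of all genes 0.22, so that the sign turned while the subunit genes stayed 0.10 below the median of all genes.

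For HFD in the cold, 3 of 83 genes were called, all lower, against 3.07% of all genes called lower and 5.31% called in either direction. The share called, 3.61%, was near that background. The median log2 fold change was -0.36, beside 0.02 for all genes, and 82 of the 83 genes were below 0, the exception being Cox4i2 at 0.14. Groups did not overlap in 52 genes, or 62.7%, all lower, against 13.1% of all genes lower. At an unadjusted p under 0.05 there were 54, all lower, against 22.7% of all genes in either direction. DESeq2 called 25 genes, all lower, against 10.8% of all genes in either direction.

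Markers of cell types also differed in the same comparison. Of the 11 brown adipocyte markers 7 were below 0 and 4 above, with a median log2 fold change of -0.25 and 1 called lower. On the TMM scale the summed level of these 11 was 29203 to 33012 CPM in NCD in the cold and 21127 to 26186 CPM in HFD in the cold, without overlap. Their sum with library totals is not given here. The 11 include Pparg, Adipoq and Fabp4, which the study calls common adipocyte markers, so that the sum is not particular to brown adipocytes. All 4 macrophage markers were above 0 for HFD in the cold, with a median log2 fold change of 0.91 and 1 (Mrc1, edgeR adjusted p = 0.0497) called higher. Their summed level was 42.3 to 63.7 CPM in NCD in the cold and 61.9 to 154 CPM in HFD in the cold. All 4 endothelial markers were above 0, with a median of 0.37 and none called. Of the 19 skeletal muscle markers 17 were below 0, with a median of -0.87 and none called, and their summed level was 1616 to 12866 CPM in NCD in the cold and 882 to 7470 CPM in HFD in the cold. The part of these cell types in the lower level of the subunit genes was not tested.

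In the interaction of diet and cold edgeR called 0 subunit genes and 0 of all genes, with 7 subunit genes and 1091 of all genes at an unadjusted p under 0.05, while DESeq2 called 0 subunit genes and 61 of all genes. The interaction had a median of -0.27 over the subunit genes, beside -0.03 for all genes.

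**Figure D1:**
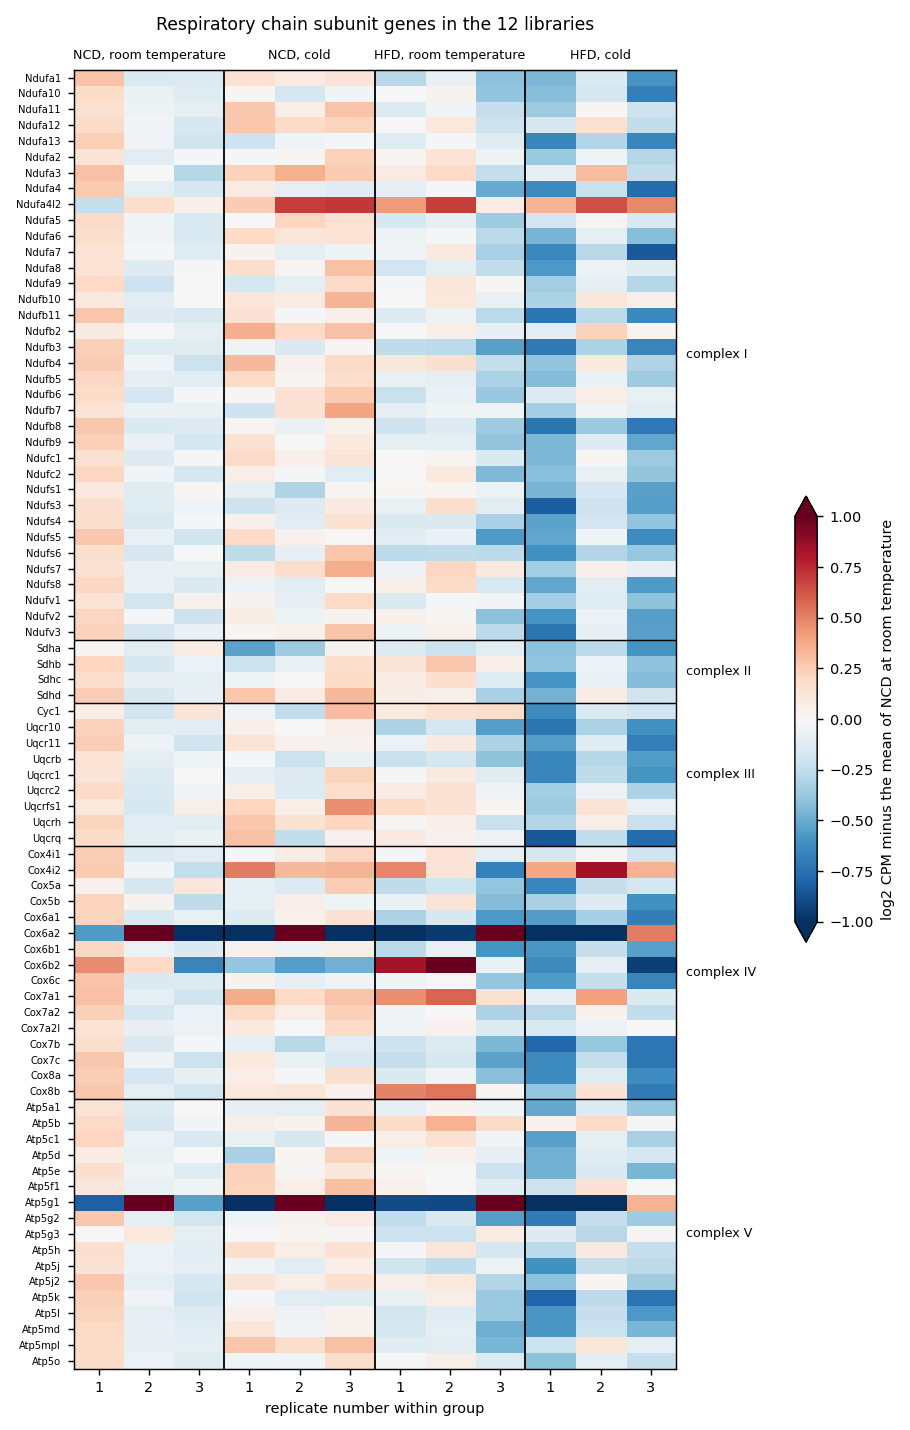
Heat map of 82 of the 83 tested subunit genes (rows, grouped by complex) in the 12 libraries (columns, replicate numbers within the 4 groups), as log2 CPM minus the mean of NCD at room temperature, with colours ending at -1 and 1. Replicates 1 and 3 of HFD in the cold are blue over most genes of all 5 complexes, replicate 2 of that group is paler, and Cox6a2 and Atp5g1 stand out in the library with the most muscle RNA of each group.

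**Figure D2:**
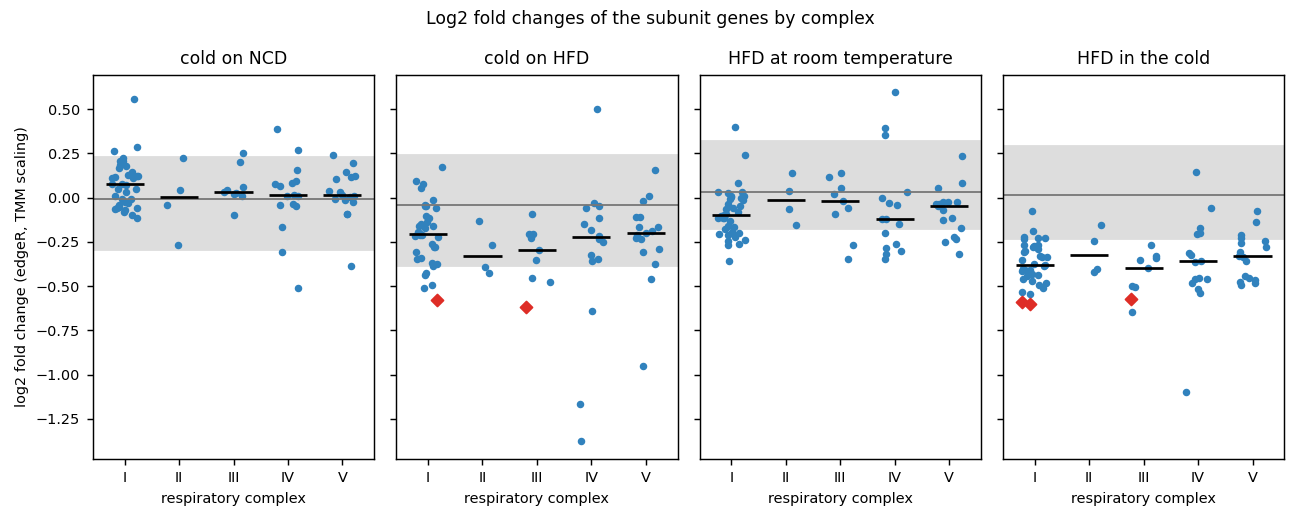
Log2 fold changes (vertical axis, TMM scaling) of the tested subunit genes by complex (horizontal axis) in 4 comparisons; black bars are medians, red diamonds are called genes, the grey line is the median of all 16737 genes and the grey band their middle 50%. In HFD in the cold the medians of the 5 complexes lie between -0.40 and -0.32; with library totals alone they lie between -0.10 and -0.03 beside a median of all genes of 0.32.

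The plot of fold changes by complex shows medians close to each other, and the differences between complexes were not tested. In HFD in the cold the median log2 fold change was -0.38 for complex I, -0.32 for complex II, -0.40 for complex III, -0.36 for complex IV and -0.33 for complex V. In cold on HFD the medians were -0.20, -0.33, -0.29, -0.22 and -0.20 in the same order, and in cold on NCD they lay between 0.00 and 0.08. Within a group the medians of the complexes varied between libraries with an SD of 0.13 to 0.17 on the log2 scale. The summed level of all subunit genes was 34956 and 35667 CPM in replicates 1 and 3 of HFD in the cold. It was 43883 CPM in replicate 2 of that group, inside the range of 42091 to 52344 CPM of the other 9 libraries. On the TMM scale this was below the 44799 to 51373 CPM of NCD in the cold. As a share of all counts this library had 4.74%, above the 4.17 to 4.64% of NCD in the cold. Without replicate 2 of HFD in the cold 14 genes were called in cold on HFD and 25 in HFD in the cold, all lower. The share of all genes called without this library is not given here, so that these counts cannot be read as particular to the subunit genes.

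The level depended on the scaling. Scd1, a fatty acid desaturase, and Fasn, the fatty acid synthase, together took 15.2 to 16.9% of all counts in NCD at room temperature, 8.55 to 11.5% in NCD in the cold, 5.22 to 9.02% in HFD at room temperature and 2.23 to 2.91% in HFD in the cold. As a share of all counts, the subunit genes took 4.17 to 4.64% in NCD in the cold and 4.00 to 4.74% in HFD in the cold, and the groups overlapped. TMM factors were 0.896 to 0.952 on NCD and 1.03 to 1.15 on HFD. With library totals alone the median of all genes in HFD in the cold was 0.32 on the log2 scale and that of the subunit genes -0.06, with 26 above 0 and 57 below. Relative to the median of all genes the subunit genes were then at -0.38, beside -0.37 with TMM. In cold on HFD library totals gave a median of -0.11 for the subunit genes and 0.06 for all genes. Log2 fold changes for HFD below are on the TMM scale.

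**Figure D3:**
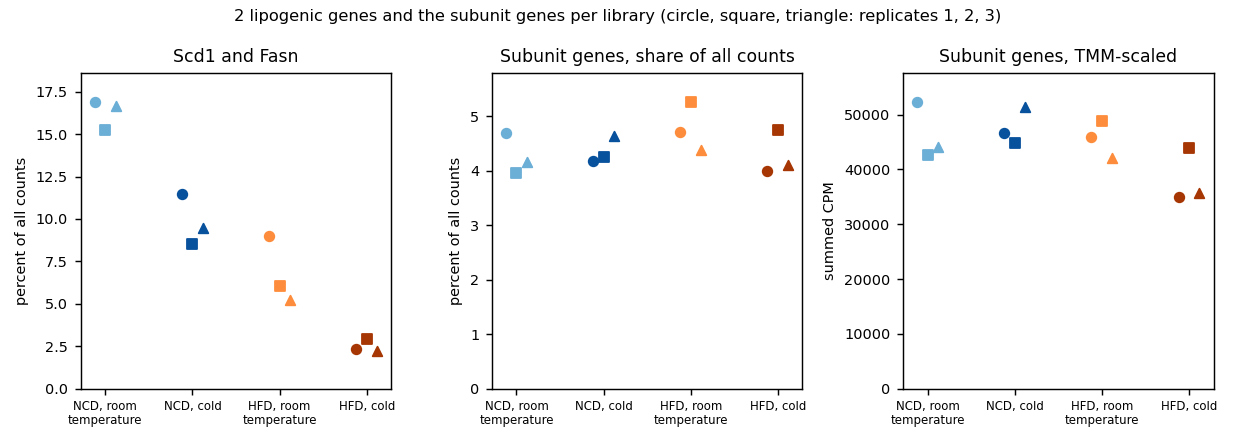
Per library, the share of all counts taken by Scd1 and Fasn (left, percent), the share taken by the 86 subunit genes (middle, percent) and the TMM-scaled sum of the subunit genes (right, CPM), by group. The share of the subunit genes (3.96 to 5.26%) overlaps between all groups, and on the TMM scale replicates 1 and 3 of HFD in the cold are the lowest of the 12 libraries.

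Complex I takes electrons from NADH. Both of its genes called in HFD in the cold were supernumerary subunits of the membrane arm. Ndufb8 was lower by a log2 fold change of -0.60 (SE 0.14, edgeR adjusted p = 0.0386), with 711, 666 and 717 CPM in NCD in the cold and 420, 540 and 424 CPM in HFD in the cold. Ndufb11, also needed for assembly of the membrane arm, had a log2 fold change of -0.59 (SE 0.15, edgeR adjusted p = 0.0464), with 336, 301 and 315 CPM against 183, 254 and 195 CPM. In both genes the groups did not overlap and replicate 2 was the highest library of HFD in the cold. The call of Ndufb11 was lost with the replicate number as an additive block, among other settings. Of 24 alternatives, 13 called Ndufb8 and 7 called Ndufb11.

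Core subunits of complex I were also lower in HFD in the cold, without calls. Ndufv1, which binds the flavin and NADH, had 937, 864 and 1046 CPM in NCD in the cold and 722, 841 and 690 CPM in HFD in the cold, a log2 fold change of -0.34 (edgeR adjusted p = 0.137). For Ndufs3 the log2 fold change in HFD in the cold lay between -0.61 and -0.14 over all settings, and 1 of 24 alternatives called it. In another comparison, cold on HFD, Ndufs3 had 320, 381 and 311 CPM at room temperature and 190, 291 and 230 CPM in the cold. The log2 fold change there was -0.51 (edgeR adjusted p = 0.0633). Ndufs1, Ndufs7, Ndufs8 and Ndufv2 had log2 fold changes between -0.40 and -0.27 in HFD in the cold, none was called, and that of Ndufs1 was 0.03 with library totals. All 37 genes counted under complex I had a negative log2 fold change in that comparison. In 24 of them, or 64.9%, groups did not overlap, against 13.1% of all genes lower without overlap.

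Complex II oxidises succinate and is the only complex made wholly from nuclear genes. None of its 4 genes was called in any comparison by edgeR or DESeq2. With edgeR Sdhb, Sdhc and Sdhd had an unadjusted p under 0.05 in cold on HFD or in HFD in the cold, all lower. Of all genes 27.5% had such a p in cold on HFD and 22.7% in HFD in the cold, in either direction. In HFD in the cold the log2 fold changes ran from -0.42 for Sdhd to -0.15 for Sdha, the latter 0.14 with library totals. Sdha, the flavoprotein, had 2182, 1991 and 2250 CPM in NCD at room temperature and 1472, 1674 and 2187 CPM in NCD in the cold. On HFD it had 1945, 1847 and 1974 CPM at room temperature and 1612, 1769 and 1416 CPM in the cold, so that the groups overlapped between diets in the cold. Sdhb, the iron-sulfur subunit, had 837, 923 and 794 CPM in HFD at room temperature and 583, 737 and 581 CPM in HFD in the cold (log2 fold change -0.43, edgeR adjusted p = 0.0874), and those groups did not overlap. The membrane anchors Sdhc and Sdhd were lower in every library of HFD in the cold than in any library of NCD in the cold, at log2 fold changes of -0.40 and -0.42. These were 2 of the 4 genes, or 50%, against 13.1% of all genes lower without overlap.

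Complex III passes electrons from ubiquinol to cytochrome c. Uqcrq, a small subunit next to cytochrome b, fell in cold on HFD by 0.62 on the log2 scale (SE 0.18, edgeR adjusted p = 0.0456), from 496, 479 and 446 CPM to 259, 392 and 273 CPM. Against NCD in the cold, with 572, 393 and 481 CPM, its log2 fold change was -0.64 (edgeR adjusted p = 0.0600). In this gene the highest library of HFD in the cold (392.4 CPM) lay just below the lowest of NCD in the cold (392.5 CPM).

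Uqcr10, another small subunit, fell on HFD in the cold by 0.58 on the log2 scale (SE 0.14, edgeR adjusted p = 0.0429), with 422, 406 and 426 CPM on NCD and 246, 328 and 268 CPM on HFD. It was also lower on HFD at room temperature without overlap, with 478, 377 and 377 CPM on NCD and 330, 361 and 279 CPM on HFD, but was not called there (edgeR adjusted p = 0.232). The calls of Uqcrq and Uqcr10 were lost with the replicate number as an additive block, while with the block within diet Uqcrq was called in cold on HFD at -0.64 (edgeR adjusted p = 0.0171). Of 25 alternatives 11 called Uqcrq in cold on HFD, and of 24 alternatives 8 called Uqcr10 in HFD in the cold. Uqcrc1, a core protein of the complex, had 1460, 1426 and 1819 CPM in NCD in the cold and 990, 1306 and 1032 CPM in HFD in the cold (log2 fold change -0.50, edgeR adjusted p = 0.0696). The redox subunits Cyc1 and Uqcrfs1 had log2 fold changes of -0.33 and -0.34, and neither was called.

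In complex V the catalytic beta subunit differed little. Atp5b, the most abundant subunit gene, had 5876, 5764 and 7118 CPM in NCD in the cold and 5774, 6471 and 5545 CPM in HFD in the cold, which overlapped (log2 fold change -0.08, SE 0.14, and 0.22 with library totals). The alpha subunit Atp5a1 had a mean of 3986 CPM (SD 393) in NCD in the cold and 3177 CPM (SD 425) in HFD in the cold. Its log2 fold change lay between -0.44 and -0.03 over all settings, and 0 of 24 alternatives called it. Atp5e, the epsilon subunit of the central stalk, had 333, 286 and 308 CPM in NCD in the cold and 204, 257 and 207 CPM in HFD in the cold, and missed the threshold with a log2 fold change of -0.47 (edgeR adjusted p = 0.0516). The stalk subunits Atp5c1 and Atp5d had log2 fold changes of -0.23 and -0.25, which were 0.07 and 0.05 with library totals. On the TMM scale all 17 tested genes of the complex were below 0 in HFD in the cold. In 10 of them, or 58.8%, groups did not overlap, against 13.1% of all genes lower without overlap. Atpif1, the inhibitor of the ATP synthase and not a subunit, held 5.94 to 9.02 CPM over the 12 libraries and was called in no comparison.

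Complex IV reduces oxygen to water. On the TMM scale 15 of its 16 tested genes were below 0 in HFD in the cold. Groups did not overlap in 10, or 62.5% of the 16, against 13.1% of all genes lower without overlap. Cox6a1, the subunit 6a form of most tissues, came nearest to a call, with 857, 970 and 1040 CPM in NCD in the cold and 639, 751 and 585 CPM in HFD in the cold (log2 fold change -0.54, SE 0.15, edgeR adjusted p = 0.0642).

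Several isoform pairs of complex IV differed in ratio between groups. For the pairs Cox7a1 and Cox7a2 and Cox8b and Cox8a, of which the first is the heart and muscle form and the second the form of most tissues, the log2 ratio within a library was highest in HFD at room temperature. A ratio within a library does not depend on the scaling. Cox7a1/Cox7a2 had log2 ratios of 0.23, 0.25 and 0.03 in NCD at room temperature, 0.36, 0.31 and 0.22 in NCD in the cold, 0.67, 0.76 and 0.63 in HFD at room temperature, and 0.37, 0.55 and 0.28 in HFD in the cold. All 3 libraries of HFD at room temperature lay above the other 9.

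Cox8b/Cox8a followed the same order, with log2 ratios of -0.25, -0.20 and -0.38 in NCD at room temperature and -0.24, -0.15 and -0.40 in NCD in the cold. They were 0.36, 0.29 and 0.16 in HFD at room temperature and -0.03, -0.01 and -0.35 in HFD in the cold. Here too the 3 libraries of HFD at room temperature, and no others, were above 0. Per kilobase of exon, the mean level over the 4 groups was 1941 CPM for Cox8b and 1351 CPM for Cox8a, and 895 CPM for Cox7a1 and 551 CPM for Cox7a2.

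Diet was tested by an exact two-sided permutation test within temperature over the 12 libraries (400 assignments, smallest p 0.005), with adjustment over 18 tests, 9 pairs by diet and by cold. HFD was associated with a higher Cox8b/Cox8a ratio, by 0.34 on the log2 scale (0.55 at room temperature and 0.13 in the cold, within-group SD 0.13, exact p = 0.015, adjusted p = 0.0450). For Cox7a1/Cox7a2 the difference was 0.31 (0.51 at room temperature and 0.11 in the cold, SD 0.10), with an exact p = 0.02 that missed the threshold after adjustment (adjusted p = 0.0514). In the batch of replicates 1 and 2 alone the differences were 0.36 and 0.30, where the smallest exact p is 0.0556. At each temperature alone, 3 libraries against 3 cannot give an exact p below 0.1.

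Neither muscle-type gene was called alone. Cox7a1 had 509, 387 and 361 CPM in NCD at room temperature and 571, 621 and 460 CPM in HFD at room temperature, a log2 fold change of 0.39 (SE 0.18, edgeR adjusted p = 0.276). Cox8b had 805, 628 and 586 CPM against 940, 964 and 677 CPM, a log2 fold change of 0.35 (SE 0.21, edgeR adjusted p = 0.408), while Cox8a had -0.20 and Cox7a2 -0.12, the latter 0.07 with library totals. In cold on HFD Cox8b had a log2 fold change of -0.64 (edgeR adjusted p = 0.0751), and with the replicate block within diet it was called lower at -0.66 (adjusted p = 0.0143). Among the libraries of HFD at room temperature the one with the most muscle RNA, replicate 3, had the lowest ratio of both pairs.

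The regions before the start sites of these 4 genes are shown because these are the 2 pairs whose ratio was highest in HFD at room temperature. They are the 250 bases upstream of the RefSeq start in GRCm38.p6, on the strand of the gene, with matches to the searched motifs in capitals. Cox7a1 is at chr7:30183921-30184170 (plus strand), Cox7a2 at chr9:79759854-79760103 (minus strand), Cox8b at chr7:140900447-140900696 (minus strand) and Cox8a at chr19:7217617-7217866 (minus strand).
Cox7a1: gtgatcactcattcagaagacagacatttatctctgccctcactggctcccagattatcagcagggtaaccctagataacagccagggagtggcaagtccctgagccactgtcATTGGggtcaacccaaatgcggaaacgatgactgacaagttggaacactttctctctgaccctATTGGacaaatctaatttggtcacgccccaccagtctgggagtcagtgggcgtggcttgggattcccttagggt
Cox7a2: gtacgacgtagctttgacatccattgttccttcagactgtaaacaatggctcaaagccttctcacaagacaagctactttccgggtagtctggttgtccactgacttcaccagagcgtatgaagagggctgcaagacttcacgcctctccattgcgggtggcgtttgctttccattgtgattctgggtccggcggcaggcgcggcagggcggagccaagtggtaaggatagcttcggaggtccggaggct
Cox8b: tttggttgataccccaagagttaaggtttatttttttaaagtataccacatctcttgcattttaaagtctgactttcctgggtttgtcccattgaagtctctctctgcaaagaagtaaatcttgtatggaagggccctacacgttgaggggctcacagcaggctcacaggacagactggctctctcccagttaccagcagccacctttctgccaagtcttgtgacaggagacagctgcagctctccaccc
Cox8a: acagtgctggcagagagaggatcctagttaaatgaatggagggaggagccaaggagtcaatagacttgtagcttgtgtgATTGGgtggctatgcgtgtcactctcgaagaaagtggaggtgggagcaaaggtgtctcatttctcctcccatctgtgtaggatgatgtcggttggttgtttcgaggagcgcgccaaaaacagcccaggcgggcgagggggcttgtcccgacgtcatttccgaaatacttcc
The capitals mark CCAAT, or ATTGG where it lies on the other strand, which occurs in 2 places before Cox7a1, in 1 before Cox8a, and in none before Cox7a2 and Cox8b. CCAAT was present in 33.8% of all 32851 promoters of the same length and in 43.1% of the 72 promoters matched to 67 of the subunit genes. Another 7 motifs were searched on both strands and had no match in these 4 windows: TCAAGGTCA (ERR element), AGGTCA (nuclear receptor core, contained in the former), CCGGAAGT (GABPA), AAGATGGC (YY1), CACGTG (E-box) and the NRF1 and MEF2 motifs. The NRF1 motif occurred in 4 of the 72 promoters of subunit genes, or 5.56%, and in 0.782% of all promoters. The ERR element occurred in 1 of the 72, or 1.39%, and in 0.387% of all. In the same order the shares were 4.17% and 2.88% for GABPA, 1.39% and 1.56% for YY1, and 15.3% and 14.0% for the nuclear receptor core. They were 8.33% and 6.02% for the E-box and 0% and 0.103% for MEF2. A match is a description of these letters only.

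**Figure D4:**
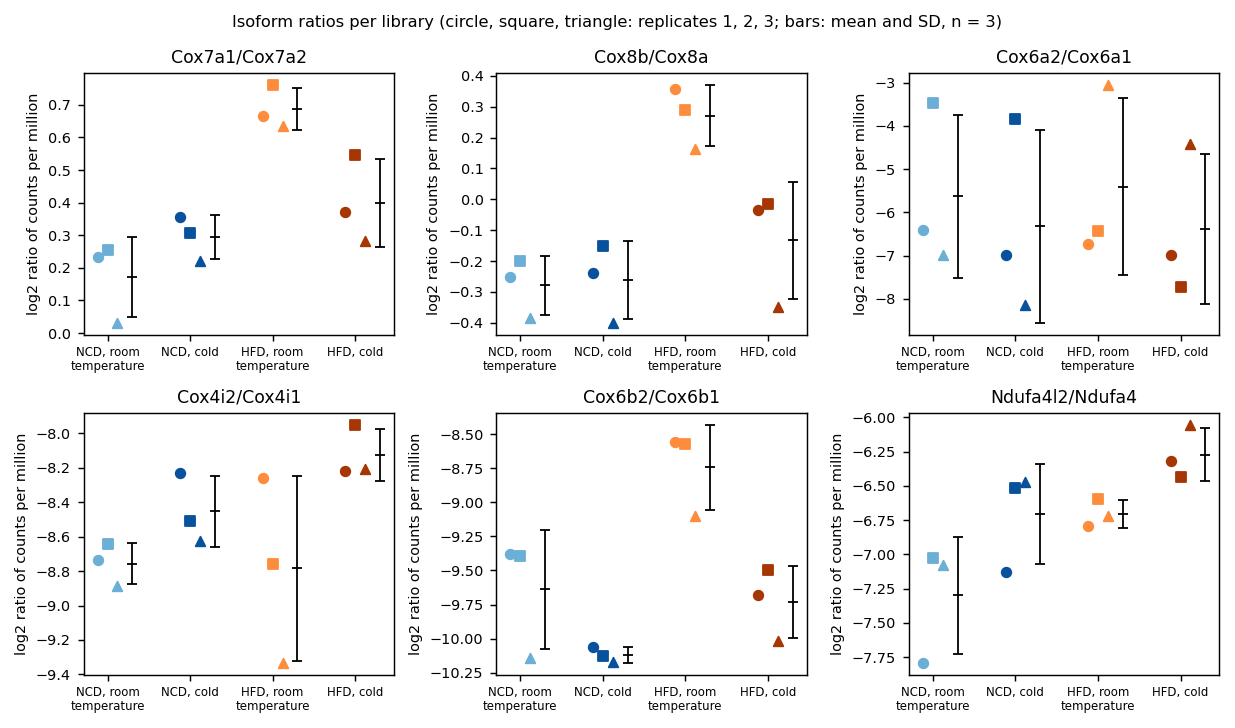
Log2 ratios of CPM of 6 isoform pairs (vertical axes) per library in the 4 groups, with replicate numbers as symbols and the mean and SD (n = 3) beside them. For Cox7a1/Cox7a2 and Cox8b/Cox8a the 3 libraries of HFD at room temperature sit above all others, and for Cox6a2/Cox6a1 1 library of each group sits far above the other 2.

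Cox6a2, the muscle form of subunit 6a, and Atp5g1, a gene for the c subunit of the ATP synthase that is known to limit its assembly in brown fat, varied widely within every group. Cox6a2 held 12.9, 76.5 and 7.03 CPM in NCD at room temperature, 6.71, 67.9 and 3.67 CPM in NCD in the cold, 7.15, 9.83 and 76.2 CPM in HFD at room temperature, and 5.04, 3.52 and 27.2 CPM in HFD in the cold. Its high library in each group was the one with the most muscle RNA: 27.2 to 76.5 CPM in those 4 and 3.52 to 12.9 CPM in the other 8. Atp5g1 held 33.4 to 77.2 CPM in the same 4 libraries and 8.60 to 18.0 CPM in the other 8.

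The ratios Cox6a2/Cox6a1 and Atp5g1/Atp5g3 had within-group SDs of 1.98 and 1.14 on the log2 scale, against 0.10 for Cox7a1/Cox7a2, and neither passed a test of diet or cold (adjusted p from 0.578 to 0.875, exact permutation test). With the replicate block within diet both genes were called lower in cold on HFD, Cox6a2 at a log2 fold change of -1.19 (edgeR adjusted p = 0.0106) and Atp5g1 at -0.72 (edgeR adjusted p = 0.0338), and the 19 muscle markers had a median log2 fold change of -1.78 in the same comparison without the block. The part of muscle RNA in these values was not tested. Cox7a1 and Cox8b did not share this spread, with 376 to 477 and 410 to 724 CPM in the 4 libraries with the most muscle RNA and 361 to 621 and 509 to 964 CPM in the other 8. The ratio of Atp5g2 to Atp5g3, which encode the same mature c subunit, passed neither test (adjusted p = 0.863 for cold and 0.225 for diet, exact permutation test).

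**Figure D5:**
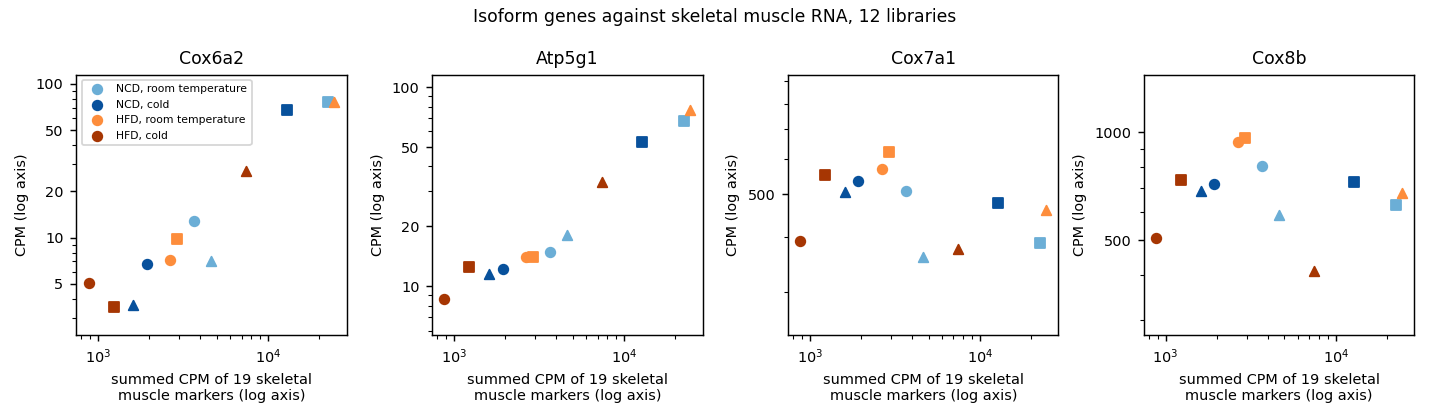
CPM of Cox6a2, Atp5g1, Cox7a1 and Cox8b (vertical, log axis) against the summed CPM of 19 skeletal muscle markers (horizontal, log axis) in the 12 libraries, with groups as colours and replicates 1, 2 and 3 as circle, square and triangle. Cox6a2 and Atp5g1 are highest in the 4 libraries with 7470 CPM or more of muscle markers, while Cox7a1 and Cox8b show no such order.

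The remaining isoform pairs involve genes at low level. Ndufa4l2, a paralogue of Ndufa4 that is known to be induced by hypoxia, held 3.73 to 4.94 CPM in NCD at room temperature, 5.22 to 7.13 CPM in NCD in the cold, 4.60 to 7.06 CPM in HFD at room temperature and 5.54 to 6.82 CPM in HFD in the cold, from 60 to 301 counts. Its log2 ratio to Ndufa4 was higher in the cold by 0.51 (exact p = 0.015, adjusted p = 0.0450) and higher on HFD by 0.51 (exact p = 0.005, adjusted p = 0.0300, exact permutation test). For HFD in the cold the log2 fold change was -0.48 for Ndufa4 and -0.08 for Ndufa4l2, and -0.19 and 0.22 with library totals. For HFD at room temperature it was -0.20 for Ndufa4 and 0.40 for Ndufa4l2.

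Cox4i2, the form of subunit 4 known from lung and oxygen-sensing cells, was at 2.11 to 2.99 CPM in NCD at room temperature and 3.12 to 3.56 CPM in NCD in the cold. On HFD it held 1.55 to 3.48 CPM at room temperature and 3.17 to 4.45 CPM in the cold, from 42 to 136 counts over all libraries. Its log2 ratio to Cox4i1 was higher in the cold by 0.48 (0.30 on NCD and 0.66 on HFD, exact permutation p = 0.005, adjusted p = 0.0300) and did not pass for diet. The summed level of 4 endothelial markers was 440 to 570 CPM in NCD at room temperature, 641 to 736 CPM in NCD in the cold, 640 to 874 CPM in HFD at room temperature and 838 to 977 CPM in HFD in the cold, and its part in the ratios of Cox4i2 and Ndufa4l2 was not tested.

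Within the batch of replicates 1 and 2 the cold differences were 0.37 for Cox4i2/Cox4i1 and 0.45 for Ndufa4l2/Ndufa4, and the diet difference of the latter was 0.58.

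Cox6b2, the testis form of subunit 6b, held 13 to 43 counts per library. Its mean log2 ratio to Cox6b1 was highest in HFD at room temperature (-8.55, -8.57 and -9.10) and lowest in NCD in the cold (-10.06, -10.13 and -10.17). The ratio was higher on HFD by 0.64 (exact permutation p = 0.005, adjusted p = 0.0300) and lower in the cold by a difference of -0.74 (exact permutation p = 0.015, adjusted p = 0.0450). Cox7a2l, a supercomplex factor, gave a log2 ratio to Cox7a2 that passed neither test, with differences of -0.03 for cold and 0.12 for HFD.

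Some of the genes that build the complexes rose in cold on NCD, where no subunit gene was called. These lists were put together with earlier results known, and their counts are descriptions. Of 36 tested assembly factors of complexes II to V, 8 rose in cold on NCD, where 4.74% of all genes were called higher, with a median log2 fold change of 0.27. Among them were Sco2, a copper chaperone of complex IV, at 1.09 (edgeR adjusted p = 0.00122), and Hccs, which attaches haem to cytochromes c, at 0.69 (edgeR adjusted p = 0.00190). Of 14 assembly factors of complex I, 2 rose, Ndufaf4 at 0.56 and Tmem186 at 0.51. Of 14 genes for cytochrome c and coenzyme Q, 3 rose, Coq10b most at 0.93.

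Of 17 regulators of mitochondrial biogenesis, 5 rose in cold on NCD, where 4.74% of all genes were called higher. Among them were Ppargc1a at 2.25 (edgeR adjusted p = 0.0202), its partner receptor Esrra at 0.68 (edgeR adjusted p = 0.0135) and the mitochondrial DNA factor Tfam at 0.65 (edgeR adjusted p = 0.00150). Ppargc1a held 70.5, 49.5 and 53.5 CPM in NCD at room temperature and 274, 475 and 74.8 CPM in NCD in the cold, the lowest library in the cold lying just above the highest at room temperature. Ucp1 rose by 1.96 on the log2 scale in cold on NCD (adjusted p = 0.000275) and by 0.92 in cold on HFD (adjusted p = 0.00656, edgeR).

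In cold on HFD, 8 of the 36 assembly factors of complexes II to V rose, where 6.9% of all genes were called higher, and Cox14 fell (log2 fold change -0.42, edgeR adjusted p = 0.0235). Of the complex I factors Nubpl, which delivers iron-sulfur clusters, fell (-0.74, edgeR adjusted p = 0.0396). Of the 14 genes for cytochrome c and coenzyme Q, 3 rose (Coq10b at 1.15, Pdss1 at 0.67 and Coq3 at 0.58) and 2 fell (Coq8a and Coq2, the latter at -0.56). Coq8a, an atypical kinase needed for coenzyme Q synthesis, fell by 1.64 in cold on HFD and by 1.60 for HFD in the cold (edgeR adjusted p = 0.00401 and 0.00892). Of the 17 regulators 3 rose in cold on HFD, Tfam at 0.61, Tfb1m at 0.48 and Polrmt at 0.35 (edgeR adjusted p = 0.00162, 0.0238 and 0.0345). Ppargc1a and Esrra were not called in cold on HFD, but their log2 fold changes were above 0 in all 25 alternatives. They ran from 1.12 to 1.54 for Ppargc1a, called in 4 alternatives, and from 0.37 to 0.59 for Esrra, called in 10. For HFD in the cold, where 3.07% of all genes were called lower, Ndufaf1, Tmem70, Surf1 and Bcs1l fell, with log2 fold changes of -0.50, -0.65, -0.61 and -0.51 (edgeR adjusted p = 0.0395, 0.0114, 0.0408 and 0.0450). Of 24 alternatives, 21 called Tmem70, 10 Ndufaf1, 8 Surf1 and 7 Bcs1l. All 14 complex I assembly factors were below 0 in that comparison, with a median of -0.34, close to the -0.36 of the subunit genes.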

How the data were processed

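Total RNA-seq of 12 iBAT libraries was analysed from whole-number counts per gene. The deposited counts are estimated counts: per the study's methods the authors trimmed reads with cutadapt and quantified them with salmon on GRCm38 transcripts, and they tested with DESeq2. Tool versions and the use of strand are not given in the sources used here. Totals were 15136861 to 46740702 per library.

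Genes were filtered with filterByExpr (minimum count 10), scaled by TMM and fitted over all 4 groups with edgeR's quasi-likelihood test (edgeR 4.0.16, limma 3.58.1, R 4.3.3), with Benjamini-Hochberg adjustment over 16737 genes and a threshold of 0.05. DESeq2 1.42.0 was an alternative. Isoform ratios were log2 CPM differences with a prior count of 0.5, tested by exact permutation. The scripts were tested on simulated data. Other scalings, filters, batch, block, muscle covariate and left-out libraries were tried.

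Named were isoform families, complex II, catalytic and redox subunits, called members or else the one with the smallest p, up to 3 called genes from each other list, and Ucp1, Ppargc1a and Esrra. Members and lists were chosen with earlier results of these data known. For 1 complex I subunit gene, values are not reported here; it stays in all counts and medians.

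Same-numbered libraries deviated together within a diet (r from 0.219 to 0.456 on NCD and from 0.155 to 0.386 on HFD). Across diets r ran from -0.214 to 0.365, and replicate 1 had 0.178 to 0.365. The libraries with the most muscle RNA share a number only within a diet (replicate 2 on NCD, replicate 3 on HFD). Between those of NCD and those of HFD r was 0.225 to 0.418, and the part of muscle RNA in the correlations was not tested. The pairing within diet rests on these correlations alone.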

Additional observations from a re-analysis of the deposited data

Results flagged for a closer look

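The Cox7a1/Cox7a2 log2 ratio differed between cold and room temperature in opposite directions on the 2 diets. In same-numbered libraries the difference was 0.12, 0.05 and 0.19 on NCD (mean 0.12) and -0.30, -0.21 and -0.35 on HFD (mean -0.29). The difference between the diets was -0.41. The ratio was flagged because all 3 differences were above 0 on 1 diet and all 3 below 0 on the other. With such a separation the exact two-sided permutation test over 3 against 3 pairs always gives its smallest p, 0.1. This p was therefore fixed by the flag and is no support for the difference. For Cox8b/Cox8a the same difference was -0.42 (exact permutation p = 0.1), with 1 of the NCD pairs also below 0.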

How the results depend on the processing

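No result turned direction where it was called. In cold on NCD, HFD at room temperature and the interaction, 0 subunit genes were called under every alternative run. In cold on HFD the 2 calls, all lower as were those below, became 8 with DESeq2, 5 with batch as a term, 4 with the replicate number as an additive block, 11 with the replicate block within diet, 9 with muscle content as a covariate and 6 with upper-quartile scaling. They became 0 with no filter on counts, in the batch of replicates 1 and 2 alone, in a fit of only the 6 libraries compared, and without the library of each group with the most muscle RNA. For HFD in the cold the 3 calls became 25 with DESeq2, 23 with the muscle covariate, 6 with batch, 5 with a mean of at least 10 counts, and 1 with no filter or upper-quartile scaling. The additive block also gave 3, without Ndufb11 and Uqcr10. They became 0 with library totals, in that batch alone, with only the 6 libraries and without the libraries richest in muscle RNA. Library totals, upper-quartile scaling and leaving out the muscle-rich libraries were chosen after seeing the data. Shares of all genes called are given above for DESeq2 and, in cold on HFD, for the block within diet. They are not given here for the other alternatives or for the left-out libraries below. Those counts therefore do not show whether the subunit genes moved apart from all genes. The cause of these changes was not tested.

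With library totals the complex medians (I to V) were 0.094, 0.177, 0.170, 0.071 and 0.144 for HFD at room temperature and -0.086, -0.031, -0.102, -0.067 and -0.033 for HFD in the cold. Leaving out 1 library gave 0 to 14 calls in cold on HFD: 14 without replicate 2 of HFD in the cold, and 0 without its replicate 1 or 3 or without replicate 1 or 2 of HFD at room temperature. For HFD in the cold it gave 0 to 25: 25 without replicate 2 of that group, and 0 without its replicate 1 or 3, NCD at room temperature replicate 2, NCD in the cold replicate 1 or 3, or HFD at room temperature replicate 2. The complex III interaction median ranged from -0.56 to -0.26, the cold difference of Cox8b/Cox8a from -0.22 to -0.14 (lowest exact permutation p = 0.035) and the diet difference of Cox7a2l/Cox7a2 from 0.078 to 0.163 (lowest exact permutation p = 0.03). Depth limits Cox6b2 most, with 13 to 43 counts per library.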
